A study of Homo sapiens with 26 samples.

Results

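The CHCHD proteins are small coiled-coil-helix-coiled-coil-helix proteins that fold around pairs of cysteines, and 8 of the genes that encode them are described here: CHCHD1, CHCHD2, CHCHD3, CHCHD4, CHCHD5, CHCHD6, CHCHD7 and CHCHD10. They were chosen by name, and all 8 were found among the 57770 single-gene entries of the ribosome profiling tables and the 60663 genes of the RNA-seq tables. Enrichment is the log2 ratio of pulldown over total input from 1 lysate, each as a share of its library's counts and with 0.5 counts added.

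Both assays used HEK293T, a human embryonic kidney line, and a light-activated biotin ligase (LOV-BirA) that biotinylates Avi-tagged ribosomes near it. The ribosome profiling cells carried the Avi tag on RPL29 at its own locus and received LOV-BirA by lentivirus as polyclonal lines. The ligase was placed at the endoplasmic reticulum (ER) with Sec61β under the SFFV promoter, at the outer mitochondrial membrane (OMM) with the transmembrane domain of OMP25 under the EF1α promoter, or left in the cytosol. Cells were treated with the elongation inhibitor cycloheximide (CHX) and lit with blue light, and each of 2 lysates per location gave a total input and a streptavidin pulldown, 12 libraries in all. The RNA-seq libraries measured whole mRNAs pulled down with OMM ligase: 2 lysates of wild-type (WT) cells with a negative control gRNA, 2 of 1 monoclonal AKAP1 null line, 2 of 1 monoclonal LARP4 null line and 1 of cells without CHX, which also had a shorter labelling pulse, 14 libraries in all. Treatment of the null lines with CHX is taken from the study's general protocol. With 1 line per genotype, the effect of a genotype and a difference between lines cannot be told apart, and p-values measure the spread between lysates.

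Libraries held 1025114 (OMM pulldown, replicate 1) to 19539527 estimated coding-sequence footprints, and 38347615 to 100840544 RNA-seq counts. The targeted gene AKAP1 stood at 32.2 and 20.3 CPM, counts scaled to the library total, in the AKAP1 null total inputs, against 115 and 119 in WT. LARP4 stood at 79.3 and 74.0 CPM in the LARP4 null inputs, against 225 and 231 in WT. Of the markers used to check the line, PAX2, LIN28B, NEFM and NEFL ranged from 5.25 to 268 CPM over the 7 RNA-seq total inputs. ALB, PTPRC, PECAM1, COL3A1 and MYH7, markers of other cell types, were at or below 0.942 CPM, while COL1A1 reached 7.16 to 23.1 CPM.

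Most of these proteins enter the mitochondrial intermembrane space through the disulfide relay. CHCHD4, known as MIA40, is the receptor and oxidase of that relay: its CPC cysteines pass disulfides to incoming proteins, and GFER reoxidises it, while AIFM1 anchors and helps to import it. Each substrate holds cysteines 10 residues apart (CX9C) that are paired across 2 helices. CHCHD1 is mS37, a protein of the small mitochondrial ribosomal subunit. CHCHD2 and CHCHD10 are paralogues of the intermembrane space. CHCHD3 (MIC19) and CHCHD6 (MIC25) belong to MICOS, the complex that holds cristae junctions, and CHCHD5 and CHCHD7 are small soluble proteins of the intermembrane space, the latter the relative of yeast Cox23.

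The coding stretches from the first to the last cysteine of these pairs are shown because they define the family and are what the relay acts on. They were read from the canonical transcripts of GENCODE 44 on GRCh38, 5′ to 3′ on the coding strand, with cysteine codons in capitals. The stretches of 7 members are given, and that of CHCHD7 is not printed here. CHCHD5 holds 8 cysteine codons in 234 bases, and CHCHD4 holds 6 in 135 bases, of which the first and the second are the CPC pair. The stretches of CHCHD2 and CHCHD10 are 93 bases each with 72.0% identical bases, and those of CHCHD3 and CHCHD6 are 96 bases each with 58.3% identical.
CHCHD1, residues 45 to 76: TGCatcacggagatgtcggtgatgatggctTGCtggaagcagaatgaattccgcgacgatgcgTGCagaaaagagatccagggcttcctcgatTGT
CHCHD2, residues 114 to 144: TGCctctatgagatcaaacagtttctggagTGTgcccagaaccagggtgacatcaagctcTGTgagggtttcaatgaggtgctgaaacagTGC
CHCHD10, residues 102 to 132: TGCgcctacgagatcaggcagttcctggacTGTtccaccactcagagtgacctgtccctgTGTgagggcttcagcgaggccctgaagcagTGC
CHCHD3, residues 183 to 214: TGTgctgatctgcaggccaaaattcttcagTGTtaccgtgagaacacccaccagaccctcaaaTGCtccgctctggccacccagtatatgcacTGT
CHCHD6, residues 197 to 228: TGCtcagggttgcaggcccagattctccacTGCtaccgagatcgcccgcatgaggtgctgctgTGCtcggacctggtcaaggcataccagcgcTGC
CHCHD4, residues 53 to 97: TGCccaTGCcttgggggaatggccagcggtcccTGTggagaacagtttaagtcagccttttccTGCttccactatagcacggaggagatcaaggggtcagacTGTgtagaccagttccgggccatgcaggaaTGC
CHCHD5, residues 12 to 89: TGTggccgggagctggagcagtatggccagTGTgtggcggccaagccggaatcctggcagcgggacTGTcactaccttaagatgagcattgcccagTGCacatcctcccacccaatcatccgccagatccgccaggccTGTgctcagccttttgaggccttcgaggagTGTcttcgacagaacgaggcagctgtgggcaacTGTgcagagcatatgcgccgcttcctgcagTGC

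The genes differ in length and in where the cysteines lie. CHCHD1 (ENSG00000172586, chr10:73782047-73783652, plus strand) has 3 exons and encodes 118 residues. CHCHD2 (ENSG00000106153, chr7:56101573-56106476, minus strand) has 4 exons and encodes 151 residues, and CHCHD10 (ENSG00000250479, chr22:23765834-23767972, minus strand) has 4 exons and encodes 142. The MICOS members are the longest: CHCHD3 (ENSG00000106554, chr7:132784870-133082090, minus strand) encodes 227 residues and CHCHD6 (ENSG00000159685, chr3:126704240-126960420, plus strand) 235, each in 8 exons and with the cysteine pairs near the C terminus. CHCHD4 (ENSG00000163528, chr3:14112077-14124870, minus strand) encodes 142 residues in 3 exons, and CHCHD5 (ENSG00000125611, chr2:112584240-112589275, plus strand) 110 residues in 4. CHCHD7 (ENSG00000170791, chromosome 8) is the shortest, with 85 residues in 4 exons and its first cysteine pair starting at residue 16.

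Only part of each coding sequence was counted, and some members have copies elsewhere in the genome. The authors masked positions whose footprints map to more than 1 place, and 97 coding positions of CHCHD2 were counted, 21.4% of its 453 coding bases. For the other members the counted positions came to 49.8% (CHCHD4) to 95.5% (CHCHD5) of the coding bases. How much of the uncounted part is due to copies was not tested. In RNA-seq the 10 annotated CHCHD2 pseudogenes together took 0.123% to 0.397% of the reads on CHCHD2 and its pseudogenes over 14 libraries. The 3 CHCHD3 pseudogenes took up to 0.837% and the 4 CHCHD4 pseudogenes up to 0.0649%. Exons of CHCHD10 overlap those of C22orf15 on the other strand, so that reads there cannot be told apart where counting ignored strand. On their own strand, exons of CHCHD5 overlap a long noncoding RNA and exons of CHCHD3 overlap a processed pseudogene, ENSG00000283041.

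In total inputs CHCHD2 had the highest mean level per kb of the members in both assays and CHCHD5 the lowest. Over the 6 RNA-seq total inputs with CHX, CHCHD2 stood at 189 ± 27.8 RPKM, reads per kb of exon scaled to the library total (mean ± SD, n = 6), and CHCHD10 at 52.1 ± 6.18. CHCHD3 followed at 30.2 ± 5.05 and CHCHD4 at 22.4 ± 1.17, and the ranges of this pair overlapped. CHCHD1 at 9.24 ± 0.629 and CHCHD7 at 7.89 ± 0.672 overlapped as well. CHCHD6 stood at 4.99 ± 0.459 and CHCHD5 at 2.26 ± 0.359, each apart from its neighbour. This scale divides by all annotated exons of a gene, 3759 bases for CHCHD5 and 5877 for CHCHD7 but 889 for CHCHD10, and so lowers genes with many alternative exons. The order of the genes, with CHCHD5 last, depends on this length. In footprint RPKM, computed here from counted coding positions and the total of coding footprints, CHCHD2 stood at 2862 ± 254 (n = 6 total inputs) and CHCHD10 at 491 ± 70.0. CHCHD1 ranged from 168 to 506 with a median of 211, the highest value in cytosol replicate 2. CHCHD7 stood at 195 ± 34.0. CHCHD3 at 98.6 ± 9.49, CHCHD6 at 95.4 ± 26.7, CHCHD4 at 83.3 ± 16.6 and CHCHD5 at 63.7 ± 22.6 each overlapped the next in order. In bulk samples such as these, fewer cells of a type and less RNA per cell cannot be told apart.

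**Figure D1:**
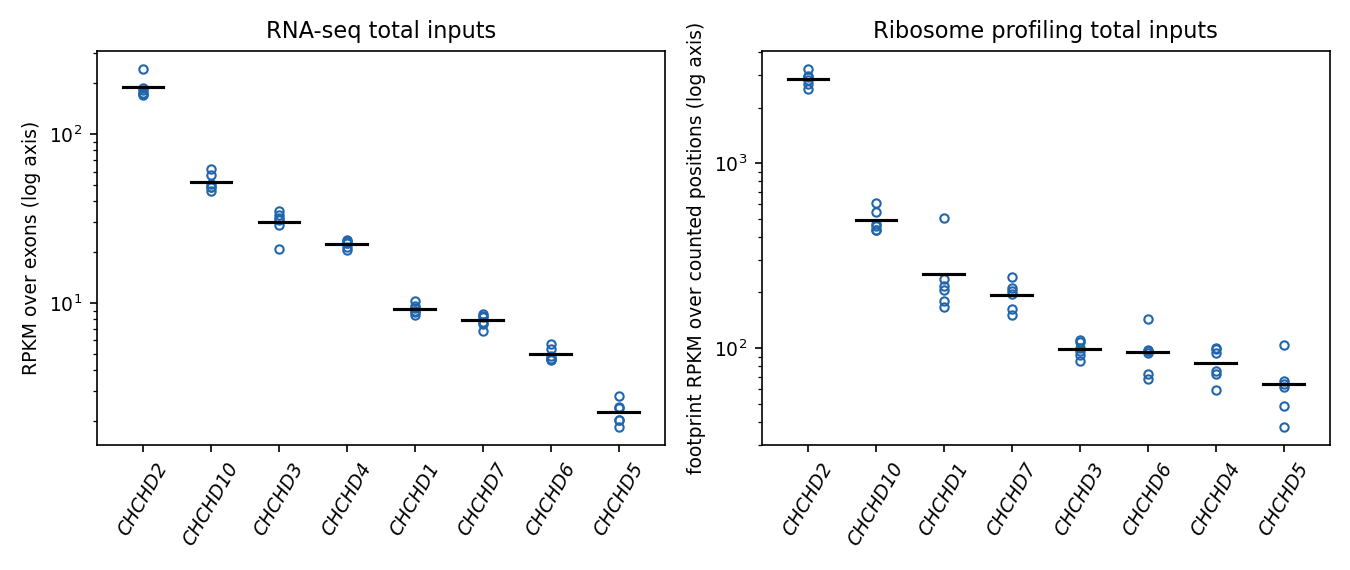
Levels of the 8 CHCHD genes in total inputs, in RNA-seq RPKM over exons (left) and footprint RPKM over counted coding positions (right), both on log axes. Open circles are the 6 total inputs with CHX of each assay and bars are their means. The mean of CHCHD2 is highest in both, at 189 and 2862, and that of CHCHD5 lowest, at 2.26 and 63.7.

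Some members also held footprints ahead of the coding sequence. In the 6 total inputs, CHCHD4 had a median of 29.4% of its 5′UTR plus coding footprints in the 5′UTR (lowest 21.8%, highest 54.6%). The share had a median of 21.9% in CHCHD7 and 19.1% in CHCHD5. CHCHD1 had 1 such footprint in the 6 libraries together, and CHCHD2 a median of 1.40%. The coding footprints are those on counted positions, 49.8% of the coding bases in CHCHD4 and 21.4% in CHCHD2. The annotated 5′UTR is 194 bases in CHCHD4 and 28 in CHCHD1. These shares were adjusted for neither, and were described and not tested.

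At the OMM, 7 of the 8 CHCHD coding sequences were enriched in the footprint pulldown, with CHCHD2, CHCHD10 and CHCHD1 highest and CHCHD4, the relay's receptor, not called. In the same comparison 17.0% of 6728 genes tested were called higher and 46.0% lower, which became 25.8% and 24.4% with TMM, a scaling that centres the bulk of genes, and the same 7 members were called with TMM. The median of the members was 0.86 on the log2 scale, against -0.38 for all genes tested. CHCHD2 counted 1604 footprints in the total input and 1027 in the smaller pulldown of replicate 1, a log2 enrichment of 1.67, and 1328 and 2186 in replicate 2, a log2 enrichment of 1.84. Its fitted enrichment was 1.76 (SE 0.10), a 3.38-fold excess (edgeR adjusted p = 2.43e-10). CHCHD10 stood at 1.56 and 1.79 in the 2 lysates and 1.68 in the fit (SE 0.14, edgeR adjusted p = 2.14e-08). CHCHD1 stood at 1.39 and 1.32, with 1.35 in the fit (SE 0.13, edgeR adjusted p = 9.62e-08). For these 3 genes both lysates lay far above the median gene.

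The small relatives CHCHD7 and CHCHD5 were enriched less in their coding sequence. CHCHD7 had log2 values of 0.76 and 1.18, and 0.99 in the fit (SE 0.17, edgeR adjusted p = 0.000101). CHCHD5 had log2 values of 0.71 and 0.73, and 0.72 in the fit (SE 0.21, edgeR adjusted p = 0.00707). Its estimate depended on which positions were counted: over all exons CHCHD5 stood at 1.76 (edgeR adjusted p = 1.57e-09). Counted positions already came to 95.5% of its coding bases, so the exon value does not measure the coding sequence alone. A long noncoding RNA overlaps exons of CHCHD5 on the same strand, and its part in the exon value was not tested. The following shares are those of CHCHD5. In the total inputs only 31.4% to 39.5% of its exon footprints fell on positions counted as coding, the lowest share among the members. CHCHD7 stood at 1.45 over all exons.

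Both MICOS members were enriched and close to each other. CHCHD6 had log2 values of 0.63 in each lysate and 0.62 in the fit (SE 0.17, edgeR adjusted p = 0.00445). CHCHD3 had 0.45 and 0.67, and 0.57 in the fit (SE 0.18, edgeR adjusted p = 0.0123). CHCHD4 was measured with few footprints, 81 in the total input and 18 in the pulldown of replicate 1 and 115 and 60 in replicate 2. Its log2 values were 0.19 and 0.20 and its fitted value 0.17, with a 95% interval from -0.38 to 0.72 (edgeR adjusted p = 0.585). It lay 0.55 above the median of all genes. Without mito replicate 2, the deeper of the 2 pulldowns, 4 of 8 members were called, and CHCHD3, CHCHD5 and CHCHD6 were no longer called, beside 11.8% of 6989 genes called higher and 25.8% lower.

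**Figure D2:**
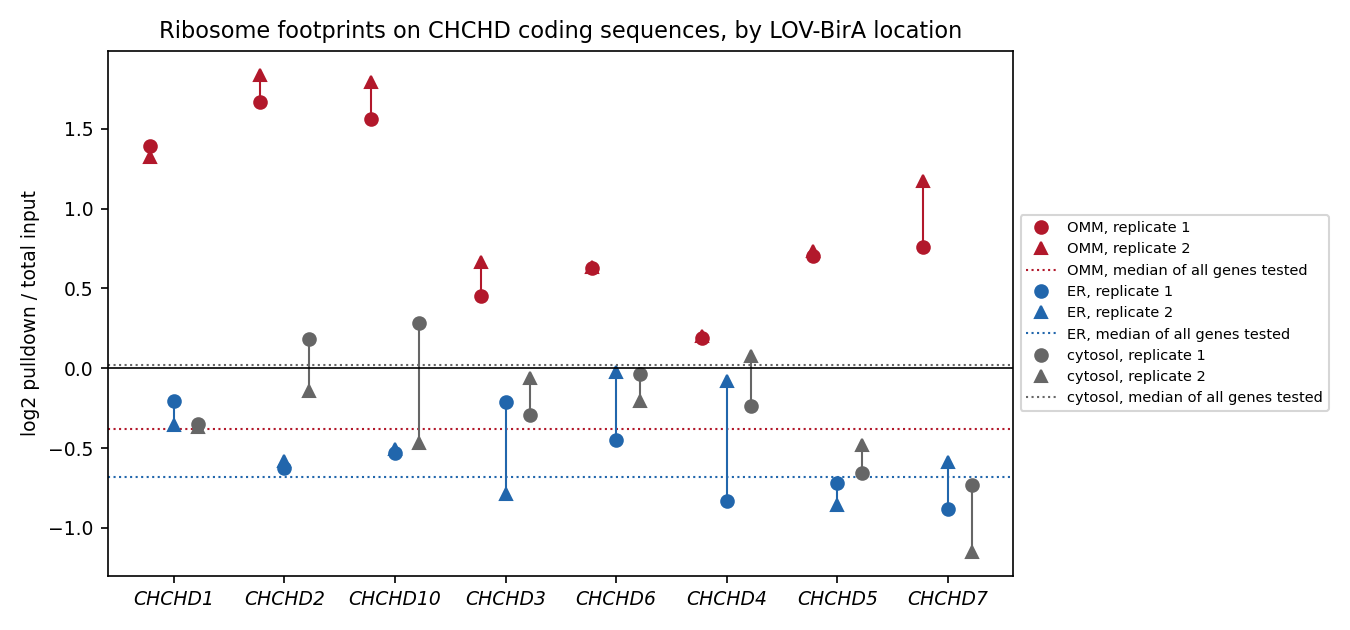
Log2 ratio of pulldown over total input for footprints on the coding sequences of the 8 CHCHD genes, with LOV-BirA at the OMM, at the ER and in the cytosol. Circles and triangles are replicates 1 and 2, and dotted lines are the medians of all genes tested, -0.38 at the OMM and -0.68 at the ER. At the OMM every member lies above the median of all genes, and values reach 1.84 for CHCHD2.

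At the ER the members moved with the bulk of genes, and their direction depended on the scaling. The 2 lysates ranged from -0.88 (CHCHD7, replicate 1) to -0.02 (CHCHD6, replicate 2). All but CHCHD6 were called lower when library totals set the scale, where 72.0% of 7381 genes tested were called lower and 19.8% higher. Relative to the median gene, at -0.68, the members lay between -0.09 (CHCHD5) and 0.42 (CHCHD6). With TMM no member was called lower, and CHCHD1 (log2 enrichment 0.38, edgeR adjusted p = 0.00934) and CHCHD6 (0.39, edgeR adjusted p = 0.0218) were called higher, beside 29.2% of all genes tested called higher and 25.4% lower.

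In the cytosol 3 of the 7 members tested were called lower, against 5.96% of 7162 genes tested, and none higher, against 2.02%. CHCHD4 had 56 footprints in 1 total input, below the minimum of 64, and was not tested. CHCHD7 had log2 values of -0.73 and -1.15 and -0.91 in the fit (SE 0.15, edgeR adjusted p = 0.00054), below zero in both lysates. CHCHD5 had -0.66 and -0.48 (fit -0.57, edgeR adjusted p = 0.0338), but stood at -0.03 (edgeR adjusted p = 0.906) over all exons. CHCHD1 had -0.35 and -0.37 (fit -0.36, edgeR adjusted p = 0.0487) and was not called under TMM, DESeq2 or either lower minimum. CHCHD2, CHCHD10, CHCHD3 and CHCHD6 lay between -0.19 and 0.03 in the fit, and the lysates of CHCHD10 (0.29 and -0.46) and CHCHD2 (0.18 and -0.14) fell on either side of zero. The cytosol libraries of replicate 1 came from 2 sequencing runs according to the file headers, and the part of this in the values was not tested.

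The difference between the locations was tested directly. The locations were carried by separate polyclonal lines, and the ER ligase had another promoter than the OMM ligase. Location cannot be told apart from line or, between ER and OMM, from promoter. OMM enrichment exceeded cytosol enrichment for 7 of 7 members tested, beside 16.6% of 6465 genes called higher and 39.7% lower (24.5% and 20.8% with TMM, where the 7 members were called too). The log2 difference was largest for CHCHD7 (1.91, SE 0.23, edgeR adjusted p = 3.68e-06), followed by CHCHD10 at 1.75, CHCHD2 at 1.73, CHCHD1 at 1.71 and CHCHD5 at 1.29. It was 0.76 for CHCHD3 and 0.74 for CHCHD6. OMM enrichment exceeded ER enrichment for 7 of 8, beside 31.1% of 6675 genes, with CHCHD2 at 2.36 (SE 0.14, edgeR adjusted p = 3.16e-10) and CHCHD10 at 2.20 highest. CHCHD4 was not called, at 0.66 with a 95% interval from -0.02 to 1.35 (edgeR adjusted p = 0.0977), but was called over all exons, at 0.74 (edgeR adjusted p = 0.0266). Under TMM the split over all genes moved from 31.1% higher and 18.6% lower to 14.2% and 22.7%, and 6 members stayed called, CHCHD6 standing at 0.55 (edgeR adjusted p = 0.053). The OMM comparisons share the OMM libraries.

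In RNA-seq of WT cells all 8 CHCHD mRNAs were enriched in the OMM pulldown, against 20.2% of 13856 genes tested, with 45.6% called lower. The members' median log2 enrichment was 1.49, and the median of all genes was -0.28. CHCHD1 counted 533 and 608 reads in the total inputs and 2795 and 3038 in the pulldowns, log2 enrichments of 1.93 and 2.04, and 1.99 in the fit (SE 0.13, edgeR adjusted p = 1.59e-05), a 3.96-fold excess. CHCHD2 stood at 1.84 and 1.95, CHCHD10 at 1.66 and 1.90, and CHCHD5 at 1.72 and 1.73, with edgeR adjusted p-values from 1.48e-05 to 1.53e-05. CHCHD6 stood at 1.27 and 1.24 (edgeR adjusted p = 5.55e-05). The lowest were CHCHD3 (0.74 and 0.80), CHCHD7 (0.64 and 0.86) and CHCHD4 (0.69 and 0.77), with edgeR adjusted p of 0.000124, 0.000331 and 0.000145. The mRNA of CHCHD4 was therefore called enriched where its footprints were not, and whether the 2 assays differed was not tested. With TMM 31.0% of genes were called higher and 27.8% lower, and all 8 members were called higher.

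In the AKAP1 null line the enrichment of CHCHD2, CHCHD5 and CHCHD10 mRNA was near zero, and 6 of the 8 members fell against WT. AKAP1 is an outer-membrane protein that binds RNA and protein kinase A. CHCHD2 counted 12366 and 7431 reads in the total inputs and 13603 and 10892 in the pulldowns, log2 enrichments of -0.04 and 0.17. Its difference from WT was -1.84 on the log2 scale (SE 0.18, edgeR adjusted p = 0.000487), or 0.28 of the WT enrichment. Of all genes tested 7.96% were called lower and 6.52% higher, and their median difference was 0.19. CHCHD5 stood at 0.08 and -0.17 and differed from WT by -1.77 (SE 0.16, edgeR adjusted p = 0.000436). CHCHD10 stood at 0.02 and 0.06 and differed by -1.74 (SE 0.17, edgeR adjusted p = 0.000486). Among these 3 genes the highest null value was the 0.17 of CHCHD2. The null and WT lysates did not overlap in any of the 8 members, the uncalled CHCHD3 and CHCHD6 included. How many of all genes were without overlap was not counted.

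CHCHD1 kept part of its enrichment, at 0.55 and 0.32, and differed from WT by -1.55 (SE 0.19, edgeR adjusted p = 0.00125). CHCHD7 stood at -0.42 and -0.28, the only member below zero in both null lysates, and differed by -1.10 (SE 0.15, edgeR adjusted p = 0.00193). CHCHD4 stood at 0.33 and 0.28, a difference of -0.43 (SE 0.12, edgeR adjusted p = 0.0496) that was not called without any 1 of the 4 lysates or with a lower minimum count.

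The MICOS members CHCHD6 and CHCHD3 were not called. CHCHD6 stood at 0.90 and 0.48 in the null lysates, and its difference of -0.56 (SE 0.17) missed the threshold (edgeR adjusted p = 0.0579) but was called with TMM, at -0.74 (edgeR adjusted p = 0.017). CHCHD3 stood at 0.62 and 0.47, and its difference was -0.23 with a 95% interval from -0.51 to 0.05 (edgeR adjusted p = 0.225). Without TMM the median gene differed by 0.19 between the lines, and relative to it the 8 members lay between -0.42 (CHCHD3) and -2.02 (CHCHD2). Under TMM 7 members were called lower, with 10.3% of all genes called lower and 2.06% higher.

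Taken by itself, the AKAP1 null pulldown was enriched for CHCHD1, CHCHD3, CHCHD4 and CHCHD6 and depleted of CHCHD7 by edgeR, with 13.9% of all genes called higher and 28.1% lower. The 4 enriched members had fitted values of 0.44, 0.54, 0.31 and 0.69, and CHCHD7 -0.35. With 1 of the 2 null lysates left out, CHCHD1 stood at 0.32 to 0.55 and CHCHD3 at 0.47 to 0.62. CHCHD4 stood at 0.28 to 0.33, CHCHD6 at 0.48 to 0.90 and CHCHD7 at -0.42 to -0.28. Which members were called changed with the lysate left out, and fewer of all genes were called as well. Under TMM 4 members were called higher and none lower, with 20.0% and 20.7% of genes.

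**Figure D3:**
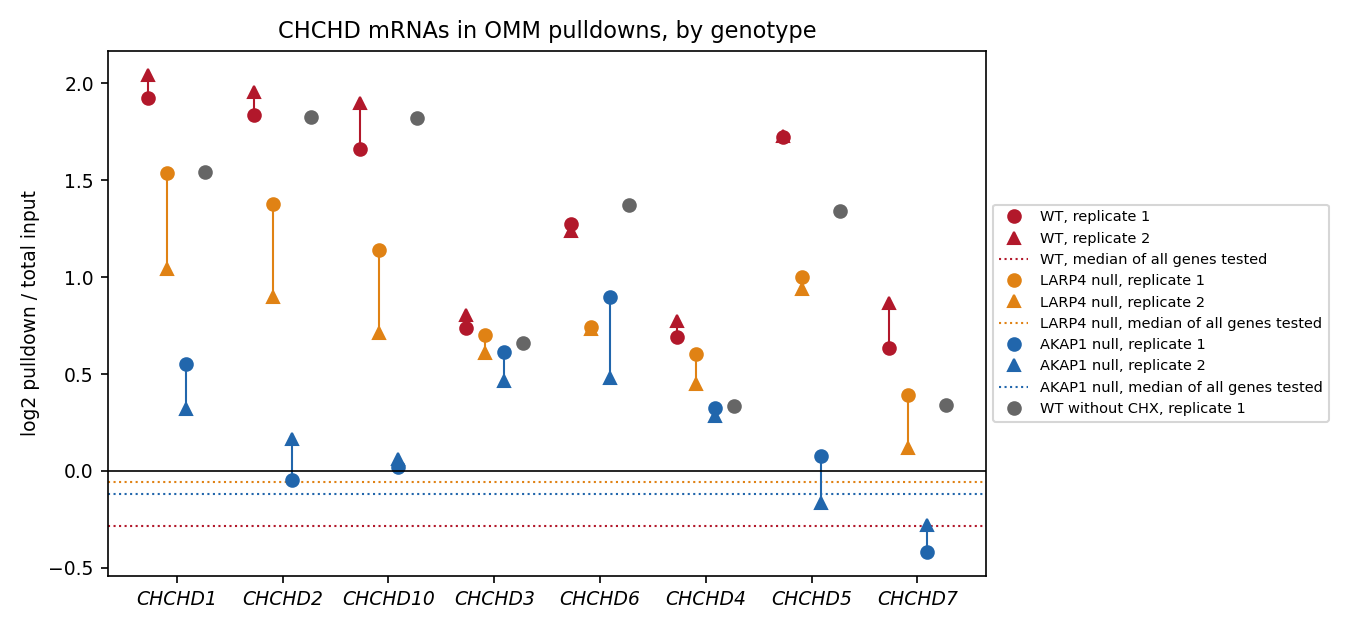
Log2 ratio of pulldown over total input for CHCHD mRNAs in WT, LARP4 null and AKAP1 null lines and in cells without CHX, all with LOV-BirA at the OMM. Circles and triangles are replicates 1 and 2, dotted lines the medians of all genes tested. WT values run from 0.64 (CHCHD7) to 2.04 (CHCHD1), and AKAP1 null values from -0.42 (CHCHD7) to 0.90 (CHCHD6).

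In the LARP4 null line 7 of 8 members were still enriched, beside 22.8% of genes called higher and 30.0% lower. LARP4 is an RNA-binding protein of cytoplasmic mRNA. CHCHD1 stood highest, at 1.54 and 1.04, followed by CHCHD2 at 1.38 and 0.90, CHCHD5 at 1.00 and 0.94 and CHCHD10 at 1.14 and 0.71. CHCHD6 stood at 0.74 and 0.73, CHCHD3 at 0.70 and 0.61 and CHCHD4 at 0.61 and 0.45. CHCHD7, at 0.39 and 0.12, was not called (edgeR adjusted p = 0.0685), though it was with TMM (0.34, edgeR adjusted p = 0.0406).

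All 8 fitted differences between LARP4 null and WT were below zero, from -0.12 (CHCHD3) to -0.85 (CHCHD10), but edgeR called none of them, and 0 of 13856 genes. At an unadjusted p below 0.05, 2270 genes passed, and the members' edgeR adjusted p ran from 0.16 (CHCHD10) to 0.568 (CHCHD3). The median gene differed by 0.17. DESeq2 called 454 genes lower, among them 6 members, and 2 higher. The members were CHCHD10, at -1.06 (DESeq2 adjusted p = 7.98e-05), CHCHD5, CHCHD2, CHCHD1, CHCHD6 and CHCHD7, at -0.70 (DESeq2 adjusted p = 0.0178). The outcome also turned on 1 library pair: without LARP4 null replicate 1, edgeR called 6 members lower, beside 8.24% of all genes lower and 32.6% higher. Without LARP4 null replicate 2 it called CHCHD10 only of the 8, beside 0.67% of all genes lower. The AKAP1 and LARP4 comparisons share the WT libraries. Set side by side, the difference from WT was -1.84 and -0.76 for CHCHD2, -1.74 and -0.85 for CHCHD10, -1.77 and -0.76 for CHCHD5 and -1.55 and -0.70 for CHCHD1 in the AKAP1 and LARP4 null lines.

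The amount of CHCHD mRNA in total inputs was not called different in either null line. The log2 differences ran from -0.22 (CHCHD5) to 0.18 (CHCHD2) in AKAP1 null and from -0.42 (CHCHD5) to 0.06 (CHCHD6) in LARP4 null. The interval of CHCHD2 in AKAP1 null reached from -0.21 to 0.57, and that of CHCHD5 in LARP4 null from -0.90 to 0.07. The test called 0 of 13977 genes in AKAP1 null, where 489 passed at an unadjusted p below 0.05 and DESeq2 called 8 higher and 7 lower. In LARP4 null it called 1 gene higher and 1 lower, 0.00715% of genes each, and the gene that fell was LARP4 itself, by 1.56 on the log2 scale (edgeR adjusted p = 0.0405). AKAP1 in its own null line differed by -2.15 without being called (edgeR adjusted p = 0.243).

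Without CHX the single lysate gave log2 enrichments of 1.83 for CHCHD2, 1.82 for CHCHD10, 1.54 for CHCHD1, 1.37 for CHCHD6 and 1.34 for CHCHD5. CHCHD3 stood at 0.66, CHCHD7 at 0.34 and CHCHD4 at 0.33. Its difference from WT with CHX, tested with the lone lysate assumed to vary like the others, had no spread of its own behind it. It was called for none of the 8 members, which does not show that they did not differ, beside 4.08% of genes called higher and 1.61% lower (3.07% each with TMM, where no member was called either). The fitted differences ran from -0.45 (CHCHD1, edgeR adjusted p = 0.279) to 0.12 (CHCHD6, edgeR adjusted p = 0.754). Relative to the median gene, at 0.16, all 8 lay below. The label of this lysate does not name its gRNA line, and CHX, the length of the labelling pulse and the line cannot be told apart.

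Of the relay's other components, AIFM1 and GFER parted in the AKAP1 null line. AIFM1 mRNA was enriched in WT at 1.85 and 2.18 and in AKAP1 null at 3.25 and 3.54, and its difference was 1.38 (SE 0.16, edgeR adjusted p = 0.00106), opposite in direction to the CHCHD members. GFER mRNA was enriched to 0.51 and 0.57 in WT and 0.63 and 0.39 in AKAP1 null, and differed by -0.03. Of the OMM footprints, AIFM1 was called higher, at 0.79, and GFER was not called, at 0.21.

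The twin-cysteine proteins outside the CHCHD names were counted in the same way. Of 16 mRNAs, among them assembly factors and small subunits of complex I, III and IV, 14 were called higher in WT. The share over all genes tested was 20.2%. Against WT, 13 fell in AKAP1 null and none rose, beside 7.96% of all genes called lower and 6.52% higher. CMC1 stood at -1.96 and COX17, the copper chaperone of cytochrome oxidase, at -1.84. The median difference of the 16 was -1.23, against -1.32 for the CHCHD members. Only 10 of the 16 could be tested in footprints, and 9 were called higher at the OMM, NDUFB10 at 1.85 and COX6B1 at 1.72. Of all genes tested there, 17.0% were called higher. In the cytosol 4 of the 10 were called lower, UQCRH at -1.61 and COA4 at -0.53, and none higher. Over all genes these shares were 5.96% and 2.02%.

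Of the 6 small TIM chaperones, which also receive disulfides from the relay, 4 mRNAs were called higher in WT and 4 fell in AKAP1 null, TIMM8B by -1.79 and TIMM10 by -1.58. TIMM8A was called lower in WT, at -0.29. Of all genes tested, 20.2% were called higher and 45.6% lower in WT, and 7.96% fell in AKAP1 null. At the OMM 2 of the 3 tested in footprints were called higher, TIMM10 at 1.59 and TIMM13 at 1.22, beside 17.0% of all genes.

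The MICOS list was mixed. Of the 9 genes, 5 mRNAs were called higher and 3 lower in WT, beside 20.2% and 45.6% of all genes tested. In AKAP1 null 3 fell, MICOS10 at -1.57 and MICOS13 at -1.14 most, and 1 rose, IMMT (MIC60), the core subunit of MICOS, at 0.94. Over all genes tested 7.96% fell and 6.52% rose. IMMT mRNA stood at -0.46 and -0.50 in WT, while its OMM footprints stood at 1.67 and 1.31. CHCHD3 and CHCHD6, its partners in the complex, had positive values in both assays. At the OMM 5 of the 9 could be tested in footprints, of which 3 were called higher and 1 lower, beside 17.0% and 46.0% of all genes.

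**Figure D4:**
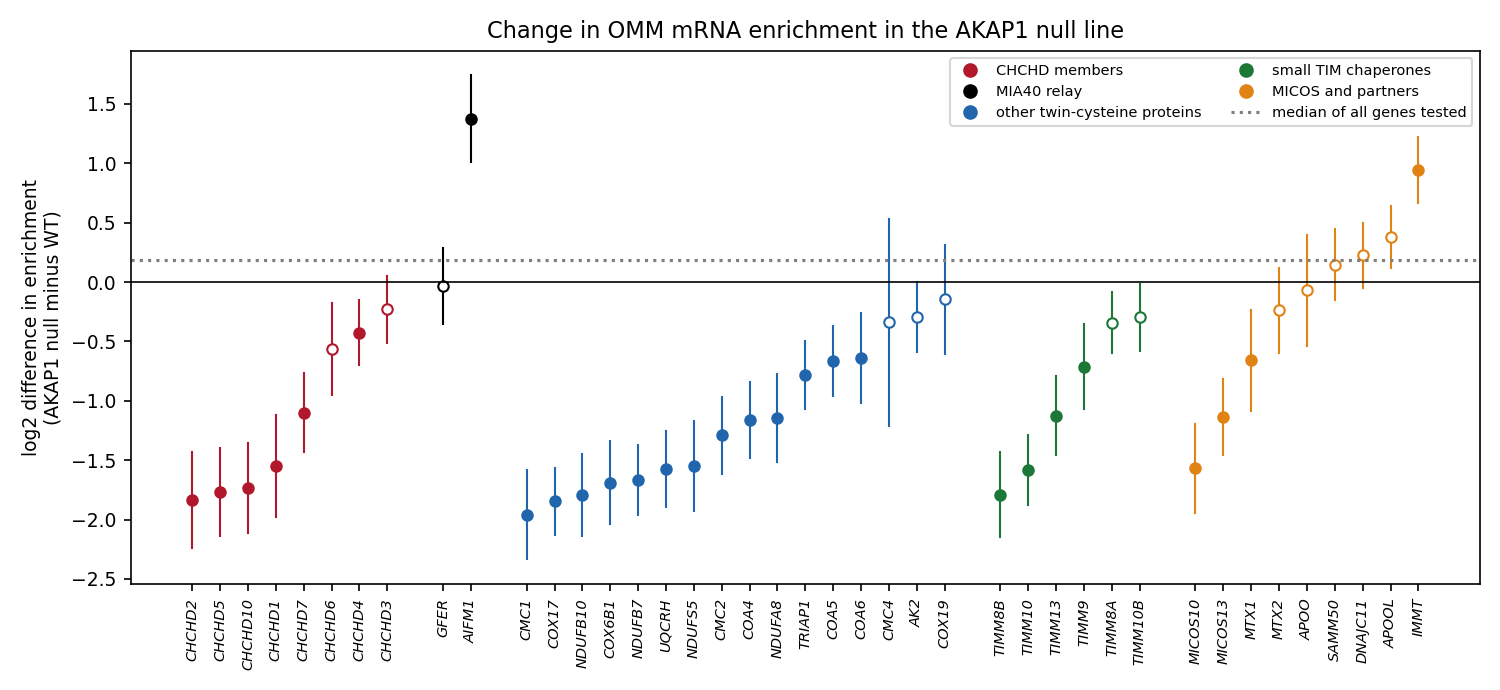
Difference in OMM mRNA enrichment between the AKAP1 null and WT lines on the log2 scale for the CHCHD members and 4 related gene lists. Points are edgeR estimates with 95% intervals, filled where the adjusted p was below 0.05, and the dotted line is the median of all genes tested, 0.19. The CHCHD members run from -1.84 (CHCHD2) to -0.23 (CHCHD3), and AIFM1 lies at 1.38.

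The members were set beside genes of like coding length, because 6 of the 8 encode fewer than 200 residues. Among the 872 tested genes under 200 residues the median OMM footprint enrichment was 0.57, with quartiles of 0.09 and 1.08, and among the 5854 others it was -0.47. CHCHD2, CHCHD10 and CHCHD1 lay above the upper quartile of the short genes, CHCHD7, CHCHD5 and CHCHD4 between the quartiles. CHCHD3 and CHCHD6 encode more than 200 residues and lay above the median of that class. For WT mRNA the short genes had a median of 0.59 (quartiles 0.05 and 1.23), and CHCHD1, CHCHD2, CHCHD10 and CHCHD5 lay above the upper quartile. In AKAP1 null the median of the short genes was 0.15 (quartiles -0.13 and 0.38). The median of the others was -0.35 in WT and -0.12 in AKAP1 null. In the cytosol the short genes had a median of -0.04 and quartiles of -0.31 and 0.12, so that CHCHD1, CHCHD5 and CHCHD7 lay below the lower quartile.

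Likeness was measured as the root mean square difference of log2 enrichment over 13 lysates among 6431 genes tested in each enrichment. CHCHD2 and CHCHD10 were each other's nearest gene, with a difference of 0.147. The nearest gene was MRPL11 for CHCHD1 (0.167), MAGOH for CHCHD3 (0.153), TXN for CHCHD5 (0.181), MRPL58 for CHCHD6 (0.157) and SUMO3 for CHCHD7 (0.287). CHCHD4 had no value because it was not tested in the cytosol. Each value is scaled by its library totals, and the measure is a description without a test.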

How the data were processed

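Ribosome profiling and RNA-seq of HEK293T cells were used, 26 libraries. For footprints the authors deposited estimated counts per gene region and RPKM on GRCh38 (the submitters' processing notes name Bowtie), with footprints spread over central positions and non-unique positions masked. For RNA-seq the authors deposited counts per gene (STAR, featureCounts). Whether counting used strand is not given in the sources used here. A deposited score, 10 times FPKM, was not used. Per file, 3 to 7 broken lines were left out. Entries of several overlapping genes, 1079, count in library totals only.

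Tests used edgeR 4.0.16 (quasi-likelihood, R 4.3.3) on counts, estimated counts rounded, with a term per lysate, because pulldown and total input come from the same lysate in the study's methods, and a pulldown effect per location or genotype. Library totals set the scale, and TMM did for total inputs alone. Genes needed 64 footprints in both total inputs of a location, or a mean of 64 RNA-seq counts. All tests were two-sided, p-values were adjusted over every gene tested (Benjamini-Hochberg), and calls needed an adjusted p below 0.05. Named are the members, the targeted genes, GFER, AIFM1 and at most 2 called genes per list and direction. Alternatives were TMM, DESeq2 1.42.0, other minimums, no replicate block, other library sizes, exon counts, other pseudocounts and leaving out each lysate. The members and lists were chosen with earlier results of these data known. In simulated data 200 genes were changed. The OMM footprint test (6728 genes) recovered 91.5% of them at a log2 change of 1 and 36% at 0.5. It also called 17 and 7 unchanged genes. The AKAP1 null minus WT test (13856 genes) recovered 68.5% at 1 and 0% at 0.5, and called 8 and 0 unchanged genes. Gene features came from GENCODE 44, sequences were translated with biopython 1.88, with Python 3.11.15 and pandas 2.3.3 for tables, and matplotlib 3.10.9 drew the figures.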

Additional observations from a re-analysis of the deposited data

Results flagged for a closer look

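The effect of the pulldown differed between groups, by a test of the difference itself, for these members. Between OMM and cytosol footprints the log2 difference was 1.71 for CHCHD1, 1.73 for CHCHD2, 0.76 for CHCHD3, 1.29 for CHCHD5, 0.74 for CHCHD6, 1.91 for CHCHD7 and 1.75 for CHCHD10, higher at the OMM. Between OMM and ER footprints it was 1.63 for CHCHD1, 2.36 for CHCHD2, 1.05 for CHCHD3, 1.49 for CHCHD5, 0.88 for CHCHD6, 1.75 for CHCHD7 and 2.20 for CHCHD10, again higher at the OMM. Between the AKAP1 null and WT lines it was -1.55 for CHCHD1, -1.84 for CHCHD2, -0.43 for CHCHD4, -1.77 for CHCHD5, -1.10 for CHCHD7 and -1.74 for CHCHD10, lower in the null line.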

How the results depend on the processing

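Of 884 values of single members under an alternative, 772 kept their side of the threshold, 73 lost the call, 26 gained one and 13 with a call in either fit changed direction, all 13 at the ER. Of the 772, 30 were called in neither fit and changed sign. The enrichment of all 8 mRNAs in WT kept its call in each of its 56 alternative fits.

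At the ER, 7 members called lower became 0 with TMM or DESeq2, beside 25.4% and 21.2% of all genes called lower. They became 3 with the mapped reads behind RPKM as library size (55.1% of all genes lower) and 2 without the lysate term (43.0% lower). Members called higher went from 0 to 2 with TMM (29.2% of all genes higher) and 1 with DESeq2 (25.9% higher). There CHCHD1 stood at 0.38 (TMM), 0.34 (DESeq2) and 0.0161 (mapped reads). CHCHD2 stood at 0.0447 and 0.0081, CHCHD3 at 0.17 and 0.12, CHCHD4 at 0.15 and 0.14 and CHCHD10 at 0.128 and 0.0909 under TMM and DESeq2. CHCHD3 stood at 0.12 over all exons, and CHCHD6 at 0.39 under TMM. In the cytosol, the 3 called lower became 1 with DESeq2 (3.67% of all genes lower), exon counts (5.43%) or mapped reads (3.53%).

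Without the lysate term (no replicate block), members called fell from 7 to 4 at the OMM (7.64% of all genes higher), from 3 to 0 in the cytosol (0.40% lower), from 7 to 3 for OMM minus cytosol (3.08% higher), from 7 to 4 for OMM minus ER (7.60% higher) and, in AKAP1 null by itself, from 4 to 1 higher (4.56%) and from 1 to 0 lower (11.3%). TMM and DESeq2 also gave 0 lower there. The LARP4 null difference, with 0 members called, gave 6 with DESeq2 (3.28% of all genes lower) and 4 with no minimum (0.79% of 39877 genes lower, 1.93% higher). The cause was not tested.

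Leaving out each lysate changed which members were called in every footprint comparison, in both null lines and for both null lines minus WT. It changed no call for WT mRNA, the CHX difference or total inputs. For OMM minus ER the difference of CHCHD6 lay between 0.64 and 1.07 and that of CHCHD3 between 0.77 and 1.355. For OMM minus cytosol these were 0.66 to 0.83 and 0.62 to 0.86. The OMM footprint enrichment of CHCHD3 lay between 0.44 and 0.67. For CHCHD6 mRNA in AKAP1 null the enrichment lay between 0.48 and 0.90, and the LARP4 null difference of CHCHD10 between -1.065 and -0.64. Another pseudocount moved no enrichment by more than 0.0301 on the log2 scale, and 4 of 112 group means by more than 1 SD. No label or method ties same-numbered total inputs of different lines together. Their deviations correlated at 0.206 between WT and AKAP1 null and 0.339 between WT and LARP4 null over 13977 genes, a hint from the data and not the design, and with the numbers as a replicate block 0 members were called in either line. Low counts limit CHCHD4 in footprints.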
